A study of Mus musculus with 3 samples.

Results

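The 40 mitosis genes described here encode the proteins that drive a cell through G2 and M phase, and all 40 were present among the 14721 genes of the count table. They were chosen by name, as a list of known mitotic genes, with earlier results of these data known. They are treated below by role. The counts come from 3 droplet libraries of sorted mouse bone marrow LSK cells (lineage-negative, Sca-1-positive, Kit-positive cells, the fraction that holds blood stem cells and early progenitors), with 1 library for each genotype. The WT library carries Spop(+/+) Myd88(+/+), the KO library Spop(D/D) Myd88(+/+), and the DKO library Spop(D/D) Myd88(-/-). The labels do not state which part of Spop the D allele lacks, what removed it, in which cells, or the age, treatment and number of the animals. SPOP is the substrate-binding subunit of a cullin-3 ubiquitin ligase, and MyD88 is the adaptor that carries signals from Toll-like and interleukin-1 receptors. The study's title states the question, which is whether Spop limits blood formation under inflammation by acting on MyD88.

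Mitotic genes are transcribed in a wave that begins late in S phase and peaks in G2 and M. In resting cells the DREAM repressor complex holds many of them off through a promoter element called the cell cycle genes homology region (CHR), and in cycling cells B-MYB and FOXM1, bound with the same MuvB core, switch them on. NF-Y, which binds CCAAT boxes, is a further activator of many of these promoters. Most blood stem cells rest outside the cycle, whereas the progenitors that follow divide often, so that this wave separates them in marrow.

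The promoters of the members were searched for the letters of both elements. RefSeq promoters (GRCm38.p6, 250 bases before to 50 bases after the start) matched 36 of the 40 members by symbol, and Dlgap5, Tpx2, Aurkb and Fam64a had none. Both strands were searched for TTTGAA (CHR) and for CCAAT, and a match of one may share letters with a match of the other. The CHR letters were in 26 of the 36 promoters (72.2%), against 17.9% of all 32851 mouse promoters of the same length and 12.4% of the 13669 that belong to genes of the count table. A CCAAT box was in 28 of 36 (77.8%), against 37.4% of all promoters. Both were in 22 of 36 (61.1%), against 6.95%. These are matches of letters and not measured binding sites. Only these exact letters were searched, so variant forms of either element would be missed.

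The promoters of 5 members are printed 5′ to 3′ on the strand of the gene, with the matches of both motifs on either strand in capitals: those of Ube2c, Cdk1 and Ccnb2, which are among the 10 most abundant members and hold both motifs, that of Kif23, whose level between libraries went against the other members, and that of Birc5, which holds neither. They are Ube2c (chr2:164769679-164769978, plus strand), Cdk1 (chr10:69352863-69353162, minus strand), Ccnb2 (chr9:70421505-70421804, minus strand), Kif23 (chr9:61946750-61947049, minus strand) and Birc5 (chr11:117848987-117849286, plus strand).
Ube2c: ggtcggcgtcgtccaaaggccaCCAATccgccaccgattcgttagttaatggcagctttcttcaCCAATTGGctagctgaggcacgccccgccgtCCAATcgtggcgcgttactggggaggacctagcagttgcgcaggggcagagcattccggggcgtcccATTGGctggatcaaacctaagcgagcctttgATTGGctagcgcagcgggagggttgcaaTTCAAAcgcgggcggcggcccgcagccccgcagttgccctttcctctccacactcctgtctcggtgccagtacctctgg
Cdk1: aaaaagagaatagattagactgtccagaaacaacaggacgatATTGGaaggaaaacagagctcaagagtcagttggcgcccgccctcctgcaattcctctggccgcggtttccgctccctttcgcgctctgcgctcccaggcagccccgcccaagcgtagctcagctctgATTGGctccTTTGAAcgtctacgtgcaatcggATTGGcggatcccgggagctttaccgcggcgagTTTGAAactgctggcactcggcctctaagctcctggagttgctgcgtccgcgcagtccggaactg
Ccnb2: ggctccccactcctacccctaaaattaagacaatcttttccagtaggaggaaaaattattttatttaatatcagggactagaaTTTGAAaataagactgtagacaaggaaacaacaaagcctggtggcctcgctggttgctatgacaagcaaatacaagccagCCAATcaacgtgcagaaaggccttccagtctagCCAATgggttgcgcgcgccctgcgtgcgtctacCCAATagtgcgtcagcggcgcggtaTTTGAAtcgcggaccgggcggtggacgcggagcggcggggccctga
Kif23: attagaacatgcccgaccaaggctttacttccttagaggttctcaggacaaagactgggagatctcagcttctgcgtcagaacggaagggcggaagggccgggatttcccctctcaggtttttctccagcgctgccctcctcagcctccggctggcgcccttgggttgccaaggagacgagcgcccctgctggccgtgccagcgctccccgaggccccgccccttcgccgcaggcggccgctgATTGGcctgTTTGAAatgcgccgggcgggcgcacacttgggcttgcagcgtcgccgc
Birc5: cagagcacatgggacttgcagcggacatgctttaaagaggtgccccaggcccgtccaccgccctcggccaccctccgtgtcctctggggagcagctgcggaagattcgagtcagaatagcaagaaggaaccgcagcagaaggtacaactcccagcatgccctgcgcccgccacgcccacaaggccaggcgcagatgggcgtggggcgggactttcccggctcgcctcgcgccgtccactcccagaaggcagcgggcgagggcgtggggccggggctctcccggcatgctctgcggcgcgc
The Kif23 promoter holds 1 match of each motif, both close to the start. Birc5, whose counts followed the sum of the other members most closely from cell to cell, has no exact match of either in its 300 bases. Variant forms were not searched there.

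Of the libraries, that of WT held 8147 cells, KO 4920 and DKO 8184, with median depths of 9245, 17319 and 12404.5 UMIs (unique transcript molecules) per cell. Because depth differed between the libraries, each cell was thinned at random to 5500 UMIs, and a level below is the number of UMIs of a gene per 1000000 at that depth. This left 7464 WT, 4920 KO and 8006 DKO cells, and took out 683 WT and 178 DKO cells that were too shallow. A count of 0 was taken to allow up to 3 UMIs, a level of 0.0731 (WT), 0.111 (KO) and 0.0681 (DKO). UMIs are counted at the 3′ end of a transcript and were not divided by gene length. With 1 library per genotype no test between genotypes is possible, all intervals are exact 95% intervals for counting error alone, and a difference between genotypes cannot be told apart from a difference between libraries. Libraries shared 46 (KO and WT), 54 (DKO and KO) and 83 (DKO and WT) cell barcodes.

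Myd88 was at 14.4 (WT), 23.1 (KO) and 4.77 (DKO), lowest where the label gives Myd88(-/-). Spop was at 70.6, 59.1 and 77.6, and since the deleted part is not given, these 3′ counts do not check its label. The sort markers did not look alike in the libraries. Kit, the stem cell factor receptor by which LSK cells are gated, was at 101 (WT), 46.3 (KO) and 70.9 (DKO), while Ly6a (Sca-1) was at 102, 110 and 105. Elane, a granule protease of neutrophil precursors, was at 46.6 (WT), 761 (KO) and 112 (DKO). Cells that resembled neutrophil precursors and erythroid precursors made up 30.7% and 24.5% of the KO cells used here, and cells that resembled B cell precursors made up 7.81% of the WT cells; the LSK gate should hold few of these. The summed levels of the 10 neutrophil progenitor markers were 1421, 5603 and 2265 in WT, KO and DKO, and those of the 14 erythroid markers 730, 2148 and 878. Results between libraries are therefore also given without those cells.

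Summed over the 40 members, mitotic transcripts were lowest in WT and highest in KO. They took 1925 of each 1000000 UMIs in WT, 2849 in KO and 2443 in DKO. KO exceeded WT 1.48-fold (95% interval 1.47 to 1.49), DKO exceeded WT 1.27-fold (1.26 to 1.28), and DKO was 1.17-fold below KO. By point values alone, the order KO, DKO, WT held for 27 of the 40 members. Among these, DKO and KO were within counting error for Cdk1, Cenpf, Cenpe, Kif20b, Bub1b, Ckap2l and Kif2c. DKO and WT were within it for Anln and Ttk. Another 6 were highest in DKO and lowest in WT. Of these, Ccnb2, Cdc20, Nuf2 and Dlgap5 were higher in KO than in DKO under the TMM scaling described below. The remaining 7 followed neither order: Nusap1, Psrc1 and Ndc80 were highest in DKO and lowest in KO, Hjurp and Kif23 were highest in WT and lowest in KO, and Aspm and Gtse1 were highest in KO and lowest in DKO. Without thinning, Top2a (281 in KO, 288 in DKO) and Tpx2 (65.5 and 66.4) were higher in DKO than in KO.

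All 40 members passed the minimum mean level of 5 per 1000000 in each pair of libraries. Between KO and WT, 18 of the 40 were at least 1.5-fold higher in KO, where 7.14% of all 9141 genes were, and 1 was at least 1.5-fold lower, where 14.9% of all genes were. The median log2 ratio of the members was 0.52, against -0.06 over all genes. Between DKO and KO, 1 member was higher (16.5% of 9096 genes) and 2 were lower (5.68%), with a median of -0.16 against 0.12 over all genes. Between DKO and WT, 4 were higher (4.03% of 9256 genes) and 0 lower (3.58%), with a median of 0.41 against 0.06. None passed 2-fold in any pair. Scaled by edgeR's TMM factors, which moved the median log2 ratio of all genes from -0.06 to 0.04 between KO and WT and from 0.12 to -0.04 between DKO and KO, the DKO to KO calls were 0 higher (10% of all genes) and 6 lower (10.1%). The pairs share libraries, so that a high KO value raises the first ratio and lowers the second at once.

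Both the size of the KO ratio and the order of KO and DKO depended on which cells were counted. Thinned to 8000 UMIs, which left out 2962 of the WT cells and 251 of the KO cells, KO exceeded WT 1.23-fold with 4 members at least 1.5-fold higher (5.7% of all genes); with every cell kept and weighted equally it exceeded WT 1.53-fold. Without the erythroid-, neutrophil- and B-lineage-like cells, KO exceeded WT 1.30-fold with 4 members past 1.5-fold (2.61% of all genes), and DKO then stood 1.04-fold above KO rather than below it. In the same cells 13 members were at least 1.5-fold higher in DKO than in WT (3.75% of all genes), and thinned to 8000 UMIs 0 were (4.29%). In each library, cells rich in mitotic transcripts were also the deeper ones: the median depth before thinning of cells with at least 20 member UMIs was 1.66 times that of the other cells in WT, 1.30 times in KO and 1.53 times in DKO.

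**Figure D1:**
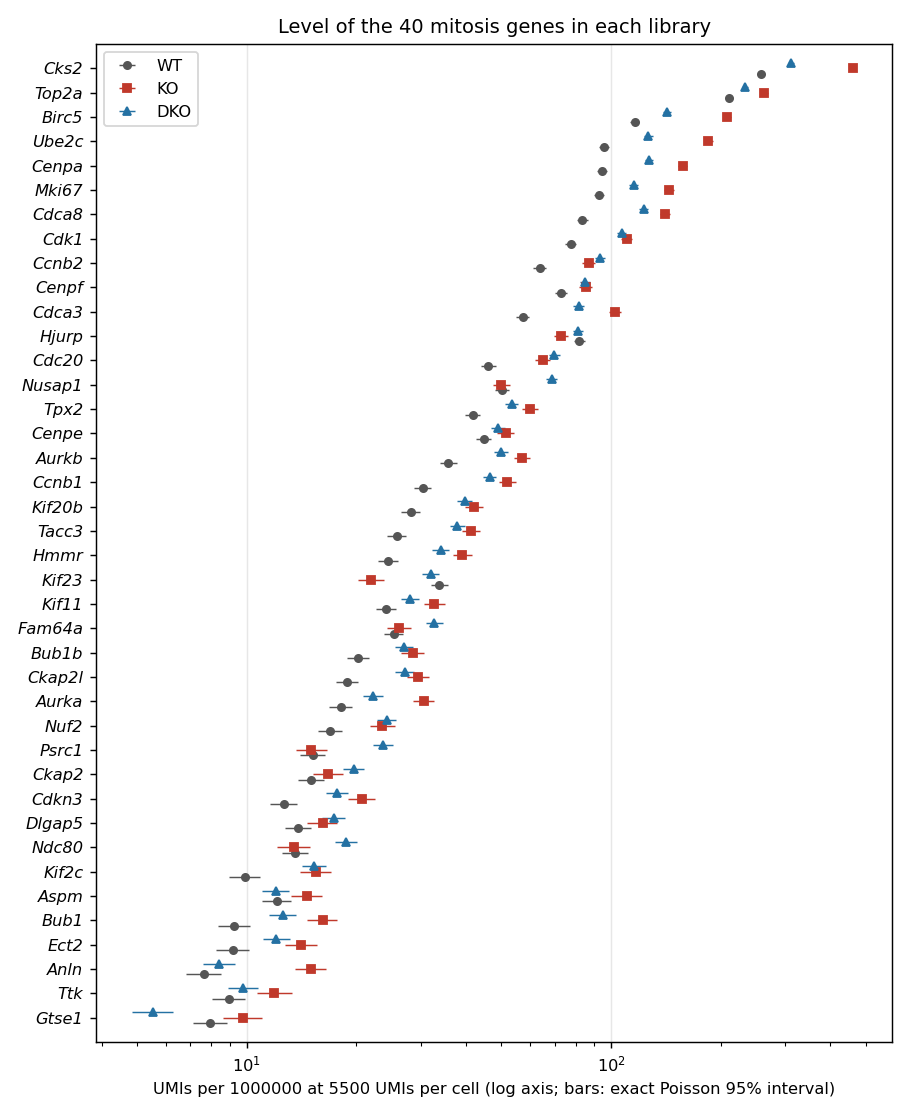
Level of each of the 40 members in the WT, KO and DKO libraries, in UMIs per 1000000 at 5500 UMIs per cell on a log axis, ordered by their mean over the libraries; bars are exact Poisson 95% intervals. Cks2 is the most abundant member and Gtse1 the least, and the WT point lies left of the KO point for 35 of the 40 genes.

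Among the genes of the CDK1 kinase itself, which starts mitosis when bound to a B-type cyclin, the summed level was 442 (WT), 733 (KO) and 576 (DKO), and 3 of the 5 were at least 1.5-fold higher in KO than in WT. Cks2, a small protein that docks onto the kinase, was the most abundant of all 40 members at 258 (WT), 463 (KO) and 312 (DKO). The KO value was 1.80-fold that of WT (1.75 to 1.84) and 1.49-fold that of DKO. Cdk1, the kinase, was at 77.5, 110 and 107, so that DKO lay next to KO. Its cyclin partner Ccnb2 was at 63.7, 86.8 and 93.2 (DKO above KO, but not with TMM), and Ccnb1 at 30.4, 51.9 and 46.4. For Ccnb1 both libraries with Spop(D/D) exceeded WT by at least 1.5-fold, 1.71-fold in KO and 1.53-fold in DKO. Cdkn3, a phosphatase that removes the activating phosphate of CDKs, was at 12.6, 20.7 and 17.7.

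Anaphase begins when the anaphase-promoting complex (APC/C) tags cyclin B and securin for destruction. Ube2c, the enzyme that starts the ubiquitin chains for this complex, was at 95.6 (WT), 185 (KO) and 127 (DKO). It had the second largest ratio of all members, 1.94-fold above WT in KO (1.86 to 2.02). Cdc20, which activates the complex, was at 46.1, 64.9 and 69.9 and was highest in DKO, though not with TMM, and 1.52-fold above WT (1.43 to 1.61).

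Until every chromosome is attached, the spindle assembly checkpoint keeps Cdc20 from acting. Its kinases Bub1 and Ttk and the related Bub1b were among the scarcer members. Bub1 was at 9.23 (WT), 16.1 (KO) and 12.5 (DKO), 1.75-fold above WT in KO (1.52 to 2.01). Bub1b (20.2, 28.6 and 27.0) and Ttk (8.92, 11.9 and 9.77) were 1.41-fold and 1.33-fold higher in KO.

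The chromosomal passenger complex, which corrects faulty attachments and later guides cytokinesis, had 3 of 3 genes at least 1.5-fold higher in KO than in WT. Birc5 (survivin) was at 116 (WT), 208 (KO) and 143 (DKO), a 1.79-fold difference between KO and WT (1.72 to 1.86). Cdca8 (borealin) was at 83.4, 140 and 123, and the kinase of the complex, Aurkb, at 35.8, 56.8 and 49.9. In DKO all 3 lay between WT and KO.

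Genes of the kinetochore, the structure that grips spindle microtubules, were less uniform. Cenpa, the histone H3 variant that marks the centromere, was at 94.5 (WT), 157 (KO) and 127 (DKO), 1.66-fold above WT in KO (1.59 to 1.74), and was the 1 gene of 6 past 1.5-fold. Hjurp, the chaperone that deposits CENP-A, went the other way, at 81.9, 72.7 and 81.3, 1.13-fold lower in KO than in WT. Of the NDC80 complex that binds microtubules, Ndc80 was at 13.6, 13.5 and 18.7 and its partner Nuf2 at 16.9, 23.6 and 24.2. The level of Ndc80 in KO and WT differed by less than counting error, and DKO was 1.39-fold above KO (1.23 to 1.58). Cenpf (73.0, 85.2 and 84.8) and the kinetochore motor Cenpe (44.7, 51.4 and 49.0) were 1.17-fold and 1.15-fold higher in KO than in WT. Without thinning, Cenpf was at 90.2 in WT and 89.4 in KO.

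Of the 11 genes for spindle assembly and spindle poles, 4 were at least 1.5-fold higher in KO than in WT: Aurka, the pole kinase (18.1, 30.6, 22.2 in WT, KO and DKO), Hmmr (24.4, 39.1, 34.0), Tacc3, which helps crosslink spindle fibres (25.8, 41.3, 37.9), and Ckap2l (18.9, 29.5, 27.1). Tpx2, which activates the Aurora A kinase, was at 41.7, 59.9 and 53.4. Nusap1, a microtubule-bundling protein, was at 50.3 in WT and 50 in KO, within counting error, and at 68.8 in DKO. With TMM, Nusap1, Psrc1 and Ndc80 were higher in KO than in WT rather than lower. Psrc1 had the same shape at 15.2, 15.04 and 23.7, with DKO 1.57-fold above KO (1.40 to 1.77) and 1.56-fold above WT, the highest ratio of any member in each of those pairs. Gtse1, the least abundant member, was at 7.94, 9.76 and 5.52, 1.77-fold below KO in DKO. Aspm (12.1, 14.6, 12.0), which works at the poles, Dlgap5 (13.9, 16.1, 17.3), which steadies kinetochore fibres, and Ckap2 (15.03, 16.7, 19.7) were 1.21-fold, 1.17-fold and 1.11-fold higher in KO than in WT, for Ckap2 within counting error.

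Of the 4 mitotic kinesins, 1 passed 1.5-fold upward from WT to KO and 1 downward. Kif2c, which takes microtubules apart at the centromere, was at 9.89 (WT), 15.5 (KO) and 15.3 (DKO), about 1.57-fold and 1.55-fold above WT. Kif11, which pushes the poles apart, was at 24.2, 32.7 and 28.1, and Kif20b, which acts late at the spindle midzone, at 28.2, 42.0 and 39.7. Kif23, the motor subunit of centralspindlin at the cleavage plane, was at 33.8 (WT), 21.9 (KO) and 32.0 (DKO). In KO it was 1.54-fold below WT (at 0.649 of the WT level, 0.589 to 0.715), the only member past 1.5-fold in that direction, though not past it with TMM, and 1.46-fold above KO in DKO (1.33 to 1.61).

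The cytokinesis genes Anln, an organiser of the contractile ring, and Ect2, which activates RhoA there, were both at least 1.5-fold higher in KO than in WT. Anln was at 7.62, 14.97 and 8.40 in WT, KO and DKO, which gave the largest KO to WT ratio of all members (1.96-fold, 1.69 to 2.28), and DKO was back within 1.10-fold of WT. Ect2 was at 9.16, 14.1 and 12.1. Of the remaining genes, Mki67, which coats mitotic chromosomes, was at 92.8, 145 and 115, and Cdca3, an adaptor for destruction of the CDK1 inhibitor WEE1, at 57.2, 103 and 81.4; both passed 1.5-fold in KO. Top2a, the topoisomerase that untangles sister chromosomes, was at 211, 263 and 234, 1.24-fold higher in KO. Fam64a (25.3, 26.2 and 32.7) differed between KO and WT by less than counting error.

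**Figure D2:**
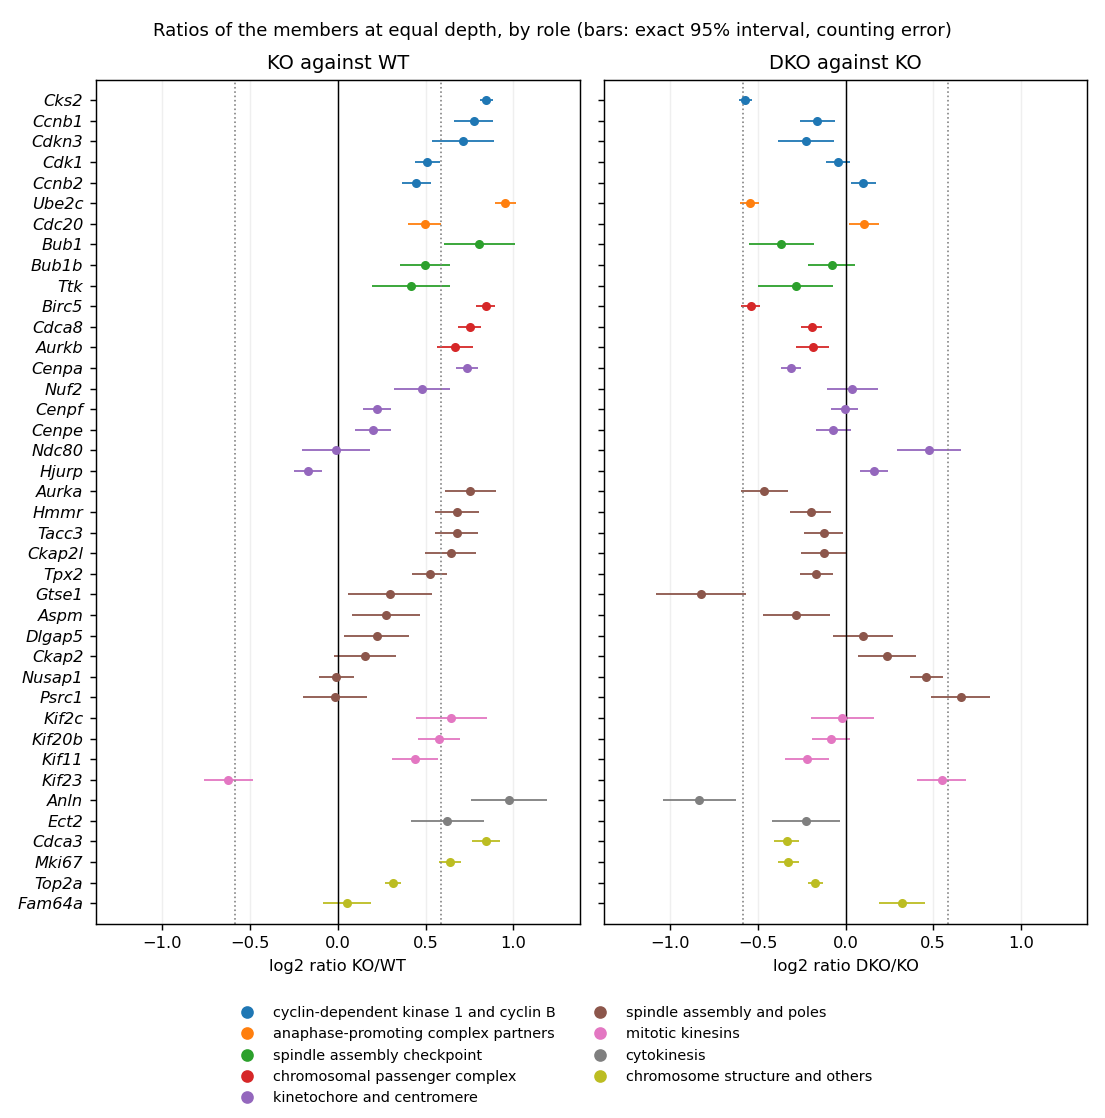
log2 ratios of each member between KO and WT (left) and between DKO and KO (right), coloured by role, with exact 95% intervals for counting error; dotted lines mark 1.5-fold. On the left the CDK1, passenger complex and cytokinesis genes lie to the right of 0 and Kif23 stands alone past the dotted line on the left side; on the right Anln and Gtse1 lie past the lower line and Psrc1 past the upper one.

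Summed by role, the excess of KO over WT ran from 1.17-fold in the kinesins and 1.24-fold in the kinetochore genes to 1.72-fold in the passenger complex, 1.73-fold in cytokinesis and 1.77-fold in the APC/C partners. The 10 most abundant members (Cks2, Top2a, Birc5, Ube2c, Cenpa, Mki67, Cdca8, Cdk1, Ccnb2 and Cenpf) made up 60.6% of member UMIs in WT, 64.7% in KO and 60.0% in DKO. Without them the other 30 were 1.32-fold higher in KO than in WT and differed 1.03-fold between KO and DKO.

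Other cell cycle genes were compared through lists that share no member with the 40. Among all genes, 7.14% were at least 1.5-fold higher in KO than in WT and 14.9% were lower. Of mitotic genes off the list, 13 of the 39 above the minimum level were at least 1.5-fold higher in KO than in WT and 0 were lower, with Cenpw (48.4 in WT, 98.7 in KO), which helps build the kinetochore, Ska1 (12.9, 23.5) and Ccna2 (42.0, 76.0), cyclin A2, at the top. S phase genes were closer: 3 of 44 were higher (E2f8, Blm and Rrm2), near the share of all genes, and 0 were lower. Their summed level was 1.14-fold higher in KO. Of 16 condensin and cohesin genes 0 passed 1.5-fold in either direction, and of 16 APC/C subunits only Anapc15 did (36.2, 66.1). Summed, the APC/C subunits were 1.15-fold higher in KO, against 1.94-fold for Ube2c.

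Among 21 tested regulators of mitotic transcription, 3 were at least 1.5-fold higher in KO than in WT (7.14% of all genes) and 1 was lower (14.9%). Mybl2, which encodes B-MYB, was at 14.5 (WT), 30.1 (KO) and 20.4 (DKO), and Rb1, a brake on E2F factors, at 5.65, 10.4 and 5.86. E2f8, a repressive E2F, is on this list as well. Tfdp2, a partner of E2F factors, was the lower one at 48.4, 31.9 and 51.8. Foxm1 was at 8.62, 10.6 and 9.83. Of the 5 tested CDK inhibitors 3 were lower in KO than in WT (14.9% of all genes) and 0 higher (7.14%). These 3 were at least 1.5-fold higher in DKO than in KO, as were 16.5% of all genes. Cdkn1c (p57), known to hold stem cells at rest, was at 10.4 (WT), 2.55 (KO) and 9.11 (DKO), Cdkn1a (p21) at 38.3, 14.8 and 24.6, and Cdkn1b (p27) at 21.5, 12.2 and 19.6. Of 8 G1 cyclins and kinases, only Ccne1 was higher in KO (7.53 in WT, 17.1 in KO) and only Ccnd2 lower (290 and 177), beside the same shares of all genes. A sum over a library does not tell more dividing cells from more mitotic RNA per cell.

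Cell by cell, the order of the libraries turned along the range of member UMIs: KO had the largest share of cells at 5 and at 20, DKO at 40, and KO the smallest at 80. At 5500 UMIs, the median cell held 3 member UMIs in WT, 11 in KO and 4 in DKO. Cells with at least 5 made up 41.8% (WT), 75.6% (KO) and 49.96% (DKO), and cells with at least 20 made up 18.2% (17.4 to 19.1), 30.7% (29.4 to 32.0) and 24.8% (23.8 to 25.7). At 40 UMIs 7.17% (WT), 8.01% (KO) and 10.9% (DKO) of cells reached it. At 80 UMIs KO was lowest, with 0.0610% of cells (3 cells, interval 0.0126 to 0.178) against 0.442% of WT (0.304 to 0.620) and 0.350% of DKO. Cells with no member UMI at all made up 8.28%, 1.67% and 6.23%.

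A mark of 20 member UMIs cuts a continuous range: cells with 15 to 24 made up 7.96% (WT), 17.6% (KO) and 9.16% (DKO). Cells above it held a mean of 39.2 member UMIs in WT, 33.4 in KO and 40.1 in DKO, and those below it 4.21, 7.79 and 4.68. The cells above it carried 67.5%, 65.5% and 73.8% of all member UMIs. Of the 37 members above the minimum level in cells below the mark, 27 were at least 1.5-fold higher in KO than in WT, where 6.97% of all genes were, and 1 was lower (15.7%). In cells above it, 0 of 40 were higher (9.4%) and 7 lower (13.6%). Nusap1, for example, was at 10.1 in WT and 12.5 in KO below the mark, and at 231 and 135 above it. Ube2c, with Cks2 and Anln, was higher in KO on both sides, at 12.2 and 40.6 below and 470 and 512 above. As the mark was drawn on the members' own sum, these are descriptions of how the sum is made up.

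**Figure D3:**
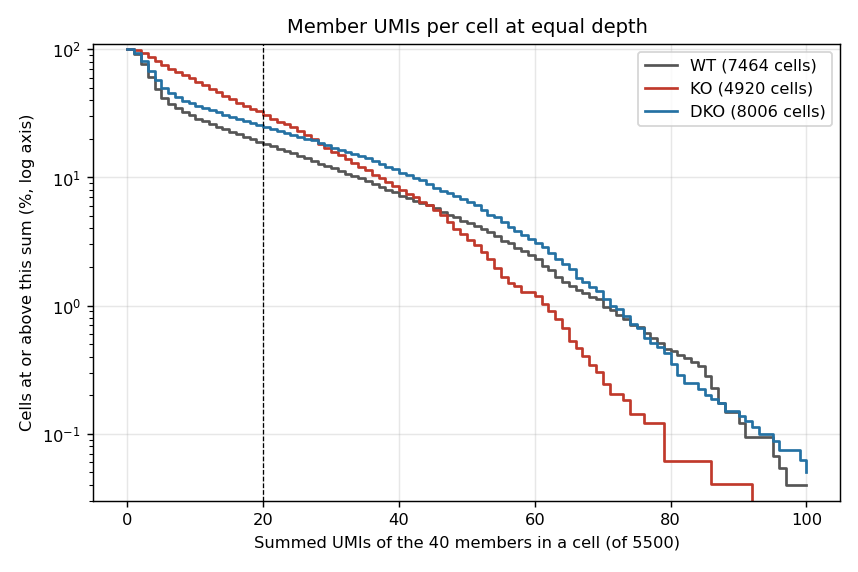
Share of cells (log axis, %) with at least a given number of member UMIs of 5500, for 7464 WT, 4920 KO and 8006 DKO cells; the dashed line marks 20 UMIs. The KO curve lies highest at 5 and 20 UMIs, falls between the others at 40 and lies lowest at 80.

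Droplets also catch free RNA of lysed cells, and its part in the values below the mark was not tested. Of the stem-cell-like cells of WT, 3.44% held a UMI of Ube2c and 39.2% one of Cks2; KO held too few such cells (11) to give the same value.

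S phase transcripts, counted over 44 genes in the same cells, differed less between KO and WT at a mark of 20 UMIs. Cells with at least 20 S phase UMIs made up 36.3% (WT), 46.4% (KO) and 45.4% (DKO), a KO to WT ratio of 1.28 against 1.68 for cells with at least 20 member UMIs. The member ratio depended on the mark, at 1.81 for 5 member UMIs and 1.12 for 40, the latter below the S phase ratio at 20. Cells past 20 in both sums were 7.17%, 9.04% and 10.4%, and cells past it in neither were 52.7%, 32.0% and 40.3%.

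Members also differed in how closely their counts followed one another. Over all thinned cells, counts of every pair of members correlated positively (780 pairs, Pearson's r from 0.05 to 0.61, median 0.21); the cells share the libraries and the depth, and low counts limit r. The highest were Ube2c with Cenpf (0.61) and with Cenpa (0.60). Birc5 tracked the sum of the other 39 most closely (r = 0.73, 0.73 (WT), 0.65 (KO) and 0.75 (DKO)), while Gtse1, Ect2 and Anln, all at low levels, had an r of 0.21, 0.21 and 0.22. Kif23 and Hjurp had an r of 0.25 and 0.26 although their levels were well above these.

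The members were ordered by the S phase content of the cells that held them. The average cell is taken over dividing and resting cells of every class, so this order need not be one of cycle position. Cells with a UMI of Cdk1, Top2a or Aurkb held more S phase UMIs than the average cell of their library, 1.40, 1.38 and 1.41 times as many in WT, 1.08, 1.09 and 1.07 in KO and 1.27, 1.26 and 1.23 in DKO. Cells with Psrc1 held 0.770, 0.779 and 0.802 times the average, the fewest in WT and KO, and cells with Cdkn3 the fewest in DKO (0.737). In all 3 libraries 14 members lay above the average and 7 below it. The former include Cdk1, Top2a and the 3 passenger genes, and the latter are Psrc1, Cdkn3, Aspm, Cenpa, Cenpe, Kif23 and Cdc20.

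**Figure D4:**
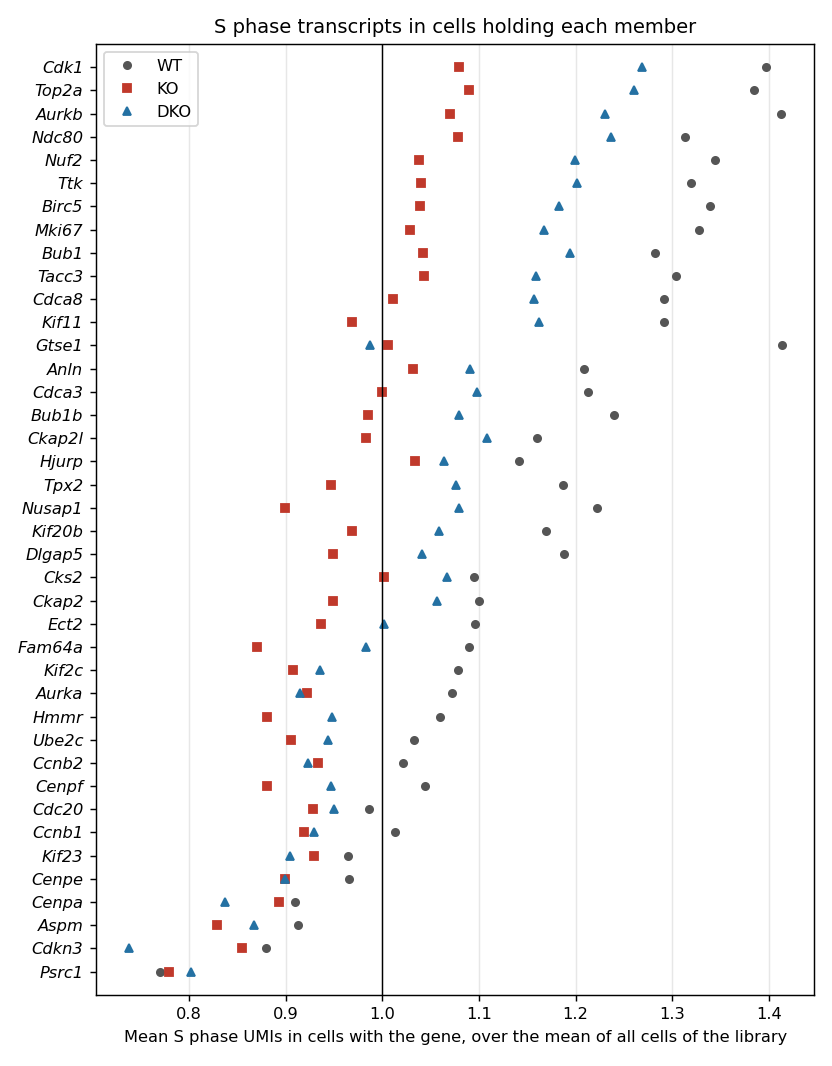
Mean S phase UMIs (44 genes) of cells with at least 1 UMI of each member, divided by the mean of all cells of the same library; circles are WT, squares KO and triangles DKO, and the line marks the average cell. Cdk1, Top2a and Aurkb lie at the top, right of the line in every library, and Psrc1 and Cdkn3 lie at the bottom, left of it in every library.

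Cells were clustered without the members and the other cell cycle lists, and clusters took class names from marker genes. Some clusters were still led by cycle genes, among them clusters 7 and 8, which took no name; classes therefore lack dividing cells that went to these. Cluster 8, led by Nusap1, Cenpf and Ube2c (891 WT, 25 KO and 1221 DKO cells), had summed member levels of 6081 in WT and 6464 in DKO. Cluster 7 (118 WT, 9 KO and 190 DKO cells) was led by histone genes, Ccnb2, Cenpe and Cenpa, and its members summed to 2051 and 2782. Its S phase level of 1143 in WT was the lowest of the clusters with 50 or more WT cells, against 3375 in cluster 8, and its cells were shallow, with a median of 7586 UMIs in WT before thinning against 14581 in cluster 8.

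Between these clusters the members parted. Cenpe was at 190 in cluster 7 and 123 in cluster 8 of WT, and 169 and 116 in DKO. Ccnb2 was at 293 and 214 in WT, and 354 and 235 in DKO. These were the 2 members above 1 in the ratio of cluster 7 to cluster 8 in both libraries. At the other end Aurkb was at 4.62 and 106 in WT, Top2a at 41.6 and 638, and Cdk1 at 18.5 and 221. Other members were about as scarce in cluster 7, among them Nusap1 (10.8 and 188 in WT) and Ube2c (32.4 and 362). Cells of cluster 7 thus held transcripts of Ccnb2, Cenpe and Cenpa with few of Cdk1, Top2a, Aurkb, Nusap1 or Ube2c, in WT and in DKO alike. Since Ccnb2, Cenpe, Cenpa and Psrc1 are among the genes by which this cluster was recognised, the values describe it and test nothing.

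By class, mitotic transcripts were scarcest in stem-cell-like cells in WT and DKO, though clustered without genes that follow the cycle lymphoid-primed-like cells were lowest in WT (779 against 810), with overlapping counting intervals. They were most abundant in B-lineage-like cells in WT, in erythroid-progenitor-like cells in KO and in megakaryocyte-progenitor-like cells in DKO. Stem-cell-like cells (led by Procr, Mecom and Hlf) had a summed level of 366 in WT (931 cells) and 332 in DKO (174 cells). No cell of either reached 20 member UMIs, which allows a share of up to 0.395% and 2.10% in this clustering only. Clustered without genes that follow the cycle, 42 of 1304 such cells of WT (3.22%, 2.33 to 4.33) and 2 of 71 of DKO reached 20 member UMIs. The summed levels were then 810 and 932. That other clustering still had an unnamed cluster led by Ccnb2, Hist1h2bc and Cenpf (636 WT, 10 KO and 853 DKO cells before thinning). Its classes may therefore also lack dividing cells. Lymphoid-primed-like cells (Flt3, Satb1, Notch1) were at 472 in WT and 594 in DKO, and in that other clustering at 779 and 1439. Megakaryocyte-progenitor-like cells (Pf4, Itga2b, Gp1bb), the one named class with at least 50 cells in every library, were at 2569 in WT (516 cells), 2989 in KO (446) and 3365 in DKO (1184). Neutrophil-progenitor-like cells were at 2838 in KO (1512 cells) and 2166 in DKO (58), B-lineage-like cells at 3434 in WT (583), and erythroid-progenitor-like cells at 3820 in KO (1207) and 3290 in DKO (215).

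**Figure D5:**
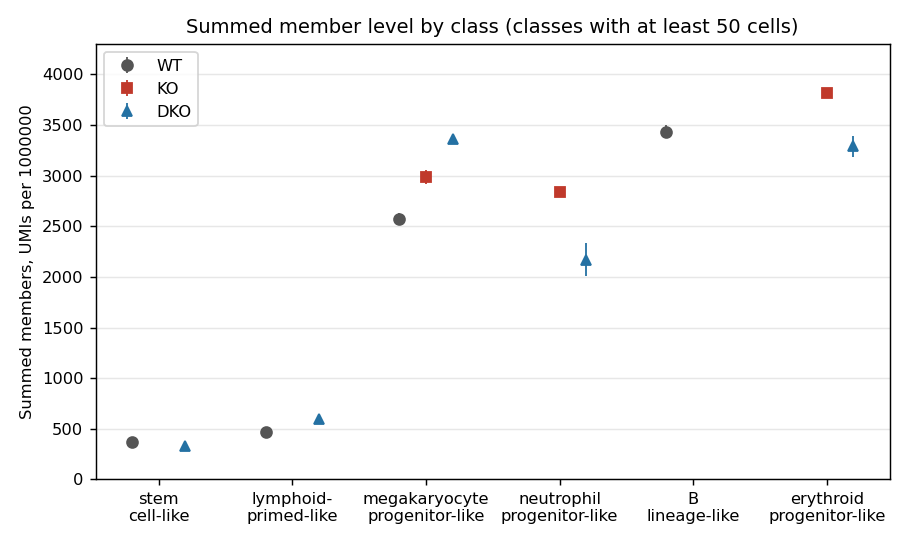
Summed level of the 40 members (UMIs per 1000000 at 5500 UMIs per cell) in each marker-defined class, for libraries with at least 50 cells of the class; bars are exact Poisson 95% intervals and are often smaller than the symbols. Stem-cell-like and lymphoid-primed-like cells lie between 332 and 594, and all other classes lie at 2166 or above; clustered without genes that follow the cycle, which is not drawn, the former lay between 779 and 1439.

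Within the megakaryocyte-progenitor-like class the excess of KO over WT was 1.16-fold (1.13 to 1.20). Of 29 members above the class minimum of 20 per 1000000, 1 was at least 1.5-fold higher in KO (Ckap2l, 33.5 in WT and 56.3 in KO; 2.37% of all genes) and 0 lower (3.67%). Clustered without genes that follow the cycle, the same class gave a KO to WT ratio of 0.993 (0.960 to 1.03). DKO was 1.31-fold above WT, with 9 of 32 members higher (3.96% of all genes) and 0 lower (1.51%); Nuf2 (21.8 in WT, 38.5 in DKO), Kif20b (32.4, 51.9) and Cdkn3 (17.6, 28.3) led them. DKO was 1.13-fold above KO, with 1 of 32 higher (Nuf2; 7.02%) and 0 lower (1.68%). The class joins 2 clusters, a less mitotic one in which KO was 1.54-fold above WT (1327 against 863) and a highly mitotic one in which they were within counting error (5990 and 6105). Between DKO and KO the direction also turned, with DKO 1.27-fold below KO in the less mitotic cluster (1046 against 1327) and 1.16-fold above it in the other (6964 against 5990).

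Other classes could be compared between 2 libraries each. In neutrophil-progenitor-like cells DKO was 1.31-fold below KO, with 7 of 27 members at least 1.5-fold lower (11.7% of all genes) and 1 higher (12.2%). Aurka (38.96 in KO, 12.5 in DKO), Ube2c (175, 65.8) and Bub1b (33.1, 12.5) were furthest apart, on 58 DKO cells. Of the other 4, Cdca3 and Birc5 had intervals below 1, and those of Kif11 and Cenpe included it. In erythroid-progenitor-like cells DKO was 1.16-fold below KO, with 1 of 31 lower (Aurka, 34.8 and 16.9; 7.34%) and 0 higher (10.1%). That class was mostly another cluster in KO (986 of 1207 cells) than in DKO, and within the cluster both shared DKO was 1.06-fold above KO. In lymphoid-primed-like cells DKO was 1.26-fold above WT, with 3 of 6 members higher (Cenpf, Cenpa and Kif23; 4.03%) and 0 lower (2.69%). In stem-cell-like cells DKO was at 0.907 of WT (0.803 to 1.02), with 0 of 3 members higher (7.32%) or lower (4%), and clustered without genes that follow the cycle it was 1.15-fold above WT.

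Most KO cells outside these classes formed cluster 10, which took no name: 1495 KO, 29 WT and 28 DKO cells led by Ifitm1, Vldlr and Ly6a, among them 2 stem cell markers. There the 40 members summed to 2131, and 22.01% of its cells (19.9 to 24.2) held at least 20 member UMIs. That was above the WT library as a whole (1925 and 18.2%) and below the KO library as a whole. Cks2 was at 286 there, Top2a at 236 and Ube2c at 130.

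In WT, Kif23 and Hjurp also differed from most other members by class. In WT stem-cell-like cells 27 of the 40 members were under 20% of their level in the WT library, among them Ube2c (6.44 against 95.6) and Birc5 (9.18 against 116), and Kif2c had no UMI. Hjurp kept 64.4% of its library level there (52.7 against 81.9) and Kif23 45.1% (15.2 against 33.8). Only Hjurp was over 50%, and Kif23 was followed by Cenpe (36.7%) and Cks2 (35.2%). In WT, cells with at least 20 member UMIs held 38.5% of the Hjurp UMIs and 48.6% of those of Kif23. The next lowest share was that of Tacc3 (55.6%) and the highest that of Ube2c (89.5%). In KO the shares were 49.1% for Hjurp, 65.6% for Kif23 and 62.6% for Birc5, so that Kif23 did not stand apart there. In DKO they were 44.4%, 62.8% and 76.9%. Among named classes taken whole, Kif23 was highest in B-lineage-like cells in WT (47.7, against 26.2 in lymphoid-primed-like cells) and in lymphoid-primed-like cells in DKO (40.9); in the mitotic cluster 8 it was at 77.1 in WT and 77.3 in DKO. In the megakaryocyte-progenitor-like class Kif23 was at 18.7 (WT), 18.3 (KO) and 27.0 (DKO). In the highly mitotic cluster of that class it was at 51.9, 40.02 and 56.8, with overlapping intervals for WT (38.3 to 68.9) and KO (27.9 to 55.7).

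Some members lie over other genes. Of the 39 located in GENCODE vM21, 11 overlapped an annotated gene on the opposite strand, such as Ube2c with Tnnc2, Nusap1 with Oip5, Cdc20 with Elovl1 and Tacc3 with Tmem129, and 8 overlapped one on the same strand. Whether the counting used strand is not given in the sources used here, and the part of such overlaps in these counts was not tested.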

How the data were processed

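RNA of sorted LSK cells was profiled with Chromium Single Cell 3′ v2 kits, per the labels' protocols. Tools named by the submitters' processing notes were Cell Ranger, bcl2fastq and Seurat, with mm10 as the build and no role or version. The authors deposited a table of whole-number UMI counts for 14721 genes in the cells they kept. A normalized table, on a natural log scale, was not used.

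Each cell was thinned without replacement to 5500 UMIs (seed 20), counts were summed per library or class, and ratios were formed with exact conditional binomial intervals, levels with Poisson intervals and shares with Clopper-Pearson intervals, all at 95%. Calls were 1.5-fold at a mean level of at least 5 per 1000000 (libraries) or 20 (classes). Cells of all libraries were clustered in scanpy 1.11.5 on 2000 variable genes without cell cycle, sex-linked, mitochondrial and ribosomal genes (30 principal components, 20 neighbours, Leiden resolution 1). A cluster was named when at least 3 markers of 1 list were in its top 15 genes with a lead of 2; classes needed 50 cells in a library. Doublets were kept in the main values; in an alternative, cells with top Scrublet scores were taken out (531 from WT, 194 from KO, 536 from DKO). TMM factors came from edgeR 4.0.16. The thinning, ratio and calling steps were tested on simulated cells drawn from the mean WT profile with known folds. Clustering, class naming and the marks per cell were not.

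The members and lists were chosen with earlier results of these data known. Values are given for the 10 most abundant members, the 3 members at either end of each pair's ratios, at least 1 member of each role, and up to 3 genes of each other list. The added clustering, the removal of clusters 10 and 1, the sums without the 10 most abundant members and the equal weighting of all cells were chosen after seeing the data, as were other genes named by cluster or class.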

Additional observations from a re-analysis of the deposited data

How the results depend on the processing

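No paired analysis was possible because each genotype has 1 library; for the same reason no replicate could be left out. Of 144 alternative values for the main comparisons, 60 kept their value within counting error (counts within 1.5 times), 82 moved and 2 reversed; the cause was not tested. KO/WT stayed above 1 in every library setting, from 1.23 to 1.59.

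Thinned to 4000 UMIs, KO/WT was 1.53 and DKO/WT 1.32 (11 members higher), DKO/KO had 0 higher, and 16.6% of WT cells held at least 15. Thinned to 8000, KO/WT was 1.23 (4 higher), DKO/KO 0.908 (2 higher, 1 lower) and DKO/WT 1.12 (0 higher, 1 lower). Without thinning they were 1.32 (7 higher), 0.940 (3 higher) and 1.24 (1 higher), and the members' DKO/KO median log2 ratio was 0.0051 in place of -0.16. With TMM they were 1.59 (0 lower), 0.767 (0 higher, 6 lower) and 1.22 (1 higher). With equal weight for all cells KO/WT was 1.53 and DKO/WT 1.30. Without the 10 most abundant members the ratios were 1.32, 0.973 and 1.29. With the highest doublet scores removed KO/WT was 1.46 and DKO/KO 0.871.

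Leaving out the B lineage, erythroid and neutrophil classes, KO/WT was 1.30 (4 higher), DKO/KO 1.04 (0 lower, median log2 ratio 0.11) and DKO/WT 1.353 (13 higher), and cells with at least 20 member UMIs were 16.6% of WT and 24.3% of KO. Without clusters 10 and 1 as well, which left 655 KO cells, KO/WT was 1.502 (0 lower), DKO/KO 0.900 (1 lower) and DKO/WT 1.351 (13 higher), with 16.6% and 28.5% of cells. At a mean level of at least 20, DKO/KO had 0 higher and 0 lower and DKO/WT 2 higher. At 2-fold, 0 members passed in either direction in KO/WT, DKO/KO or DKO/WT. In place of 20 member UMIs, a mark of 5 gave 41.8%, 75.6% and 49.96% (WT, KO, DKO), a mark of 10 gave 28.8%, 55.8% and 36.4%, and a mark of 40 gave 7.17%, 8.01% and 10.9%. Over the settings between libraries at 1.5-fold, the share of all genes called ran from 2.61% to 10.6% (KO/WT higher), 7.48% to 23.5% (lower), 9.13% to 24% (DKO/KO higher), 2.21% to 10.1% (lower), 2.78% to 8.57% (DKO/WT higher) and 1.86% to 9.22% (lower).

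At resolution 0.6 the megakaryocyte class gave KO/WT 1.04 and DKO/KO 1.28 and the neutrophil class 0.858. At 1.5 the megakaryocyte class gave KO/WT 1.05, DKO/KO 1.349 and DKO/WT 1.41, the neutrophil class 0.942, the lymphoid-primed class 1.37 and the stem cell class 1.02. Without thinning, the erythroid class gave 0.802 and the megakaryocyte class DKO/KO 1.10. Clustered without genes that follow the cycle, the megakaryocyte class gave KO/WT 0.993, DKO/KO 1.26 and DKO/WT 1.2503, the lymphoid-primed class 1.85, the stem cell class 1.15, the erythroid class 0.913 and the neutrophil class 0.887. Members at low levels, such as Gtse1, have wide counting intervals, and the depth of the cells kept sets which cells are compared.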
